A study of Homo sapiens with 12 samples.

Results

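The response of A172 cells to siRNA-1, the first of a pair of small interfering RNAs against uc.110, was followed across pathways. A172 is an established human glioblastoma line of adherent cells, wild-type by label, with no genetic change introduced here. The 8 libraries compared, of 12 in the series, were chosen by their labels: 4 from cells given a scrambled control siRNA and 4 from cells given siRNA-1. All were treated alike otherwise: wells seeded with 300000 cells received 3 µL of siRNA at 20 µM with 9 µL of Lipofectamine 2000 for 6 h, and RNA was taken for sequencing on day 2 after transfection. No untransfected cells were among the samples used, so every library carries the reagent and a double-stranded RNA. The genes are all gene intervals of the deposited table that passed a check of their coordinates, 44875, of which 24941 had enough reads to be tested and 14553 of these were protein-coding. The remaining 4 libraries, given siRNA-2 against the same region, were used to test where the responses to the siRNAs differ.

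uc.110 is an ultraconserved element, a stretch of genome without a difference between human, mouse and rat, and some such elements are transcribed. An siRNA is loaded onto an Argonaute protein, which cuts transcripts that match it fully and lowers others that match its first bases. Double-stranded RNA is also read by innate sensors, among them TLR3 in endosomes and the RIG-I family in the cytosol, whose signal leads through kinases and IRF factors to interferon and then through STAT factors to interferon-stimulated genes. These routes are background: no measurement here tells them apart.

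The 8 libraries held 43015099 to 48908671 counts in the intervals used, and replicates of a group correlated at 0.994 to 0.996 on the log scale. A pair of libraries stood apart. In scrambled replicate 1, 1681 intervals held reads found nowhere else in the series, and in the other 7 libraries 91 to 140 did. Reads of 45S ribosomal RNA made up 16.2% in siRNA-1 replicate 3, against 1.81% to 5.48% in the other 7. Results are for all 8 libraries, and those that change without either library are given beside the result. The labels do not say that replicates came from separate cultures, so the spread behind every p-value may be a technical one, between samples rather than cultures. In bulk RNA, fewer cells of a kind and less RNA per cell cannot be told apart.

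The labelled cell type was checked against its markers. The 12 glioma and mesenchymal markers summed to 16140 to 17080 CPM (counts scaled to a common library size) in the scrambled libraries and to 17210 to 19640 in the siRNA-1 libraries. The mesenchymal SPARC, VIM and COL1A2 were among the most abundant. Of the glial and stem cell members, GFAP had 261 to 425 reads a library, OLIG2 207 to 445 and SOX2 587 to 788, and S100B had 1 read in all 8 libraries. Of the markers of other cell types, 7 of 9 hematopoietic genes had an interval in use, and PTPRC and AIF1 did not. The 7 summed to 37.8 to 46.1 CPM with scrambled and 65.2 to 83.6 with siRNA-1, nearly all of it from CD68, while HBB was at 0 in all 8 libraries. Epithelial markers summed to 18.97 to 26.5 and 33.0 to 47.7 CPM, with KRT5 as the largest share in each of the 8 libraries. Endothelial, neuron and oligodendrocyte markers, summed by cell type, reached at most 38.9 CPM in any of the 8 libraries. What part these markers have in the results was not tested. The targeted element itself was at the edge of detection: uc.110 (hg38, chromosome 2, 236162738 to 236162980) had 4, 0, 1 and 6 reads in the scrambled libraries and 2, 0, 1 and 2 with siRNA-1, so a change in it was not detectable at this depth. The deposited gene interval around it, LOC105373944 (236161340 to 236164886, minus strand), had no match in the annotation used. It had 40, 23, 17 and 29 reads with scrambled and 12, 22, 14 and 19 with siRNA-1. These groups overlapped, and the log2 fold change of -0.68 (SE 0.32) did not pass the edgeR test (adjusted p = 0.079, and 0.0315 without scrambled replicate 3).

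With siRNA-1, 13328 of 24941 genes were called changed (53.4%, at a threshold of 0.05 for the adjusted p of edgeR's quasi-likelihood test), 7130 of them higher (28.6%) and 6198 lower (24.9%). Most changes were small: the median size among called genes was 0.42 on the log2 scale, and 58.8% of them moved by less than 0.5. Changes of at least 2-fold were called for 1276 genes upward (5.12%) and 583 downward (2.34%). All 4 siRNA-1 libraries lay above all 4 scrambled libraries for 25.2% of the genes and below them for 22.3%. Because 53.4% of all genes were called, a list of genes is described below by its counts in each direction and its median log2 fold change, read against these shares and against a median of 0.0053 over all genes tested. Most lists hold protein-coding genes, for which the shares were higher: 35.4% of 14553 rose and 28.4% fell, with a median of 0.03. The shares also grew with level. Of 5 equal groups of all genes by average level, the lowest had 12.2% higher and 8.80% lower. The highest had 40.4% and 35.4%, so for lists of abundant genes the shares above are too low a background. The balance between the directions depended on the fit. With only the 8 libraries compared in the fit, 6440 genes were called higher and 6434 lower. Without scrambled replicate 1 the counts were 6471 and 6359, and without siRNA-1 replicate 2 they were 6348 and 6383. With both libraries that stand apart left out, they were 6110 and 6010. When protein-coding genes were fitted alone, 4675 were called higher and 4782 lower, against 5156 and 4131 in the fit of all genes. The plot of list shares gives 28 of the lists.

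**Figure D1:**
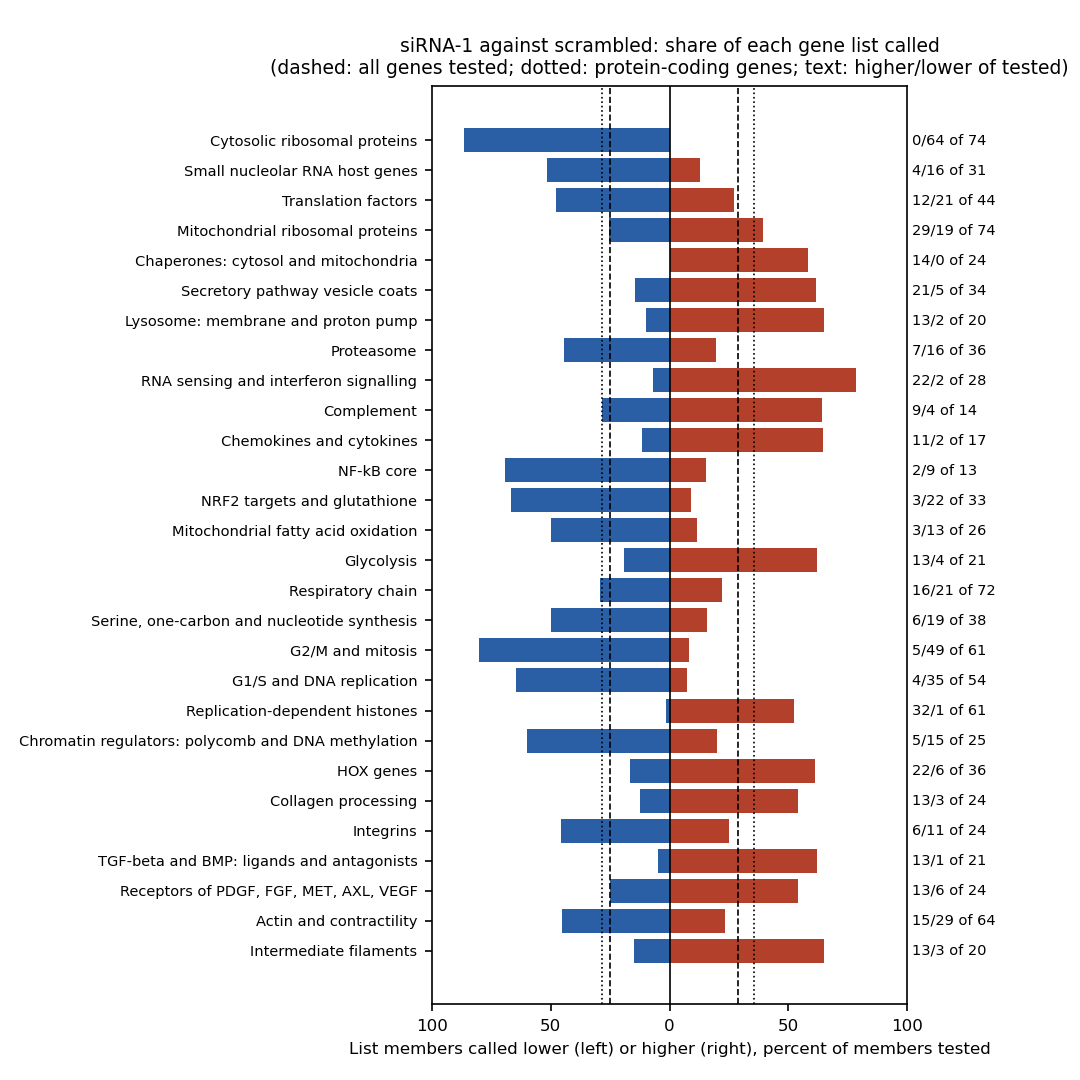
Share of the tested members of 28 gene lists called higher (red, right) or lower (blue, left) with siRNA-1 against scrambled, in percent, 4 libraries a group. Dashed lines mark 28.6% and 24.9%, the shares over all genes tested, and dotted lines 35.4% and 28.4%, those over protein-coding genes. Ribosomal proteins, G2/M genes and NRF2 targets lie to the left, and RNA sensing, secretory pathway, histone and HOX genes to the right.

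Genes that detect foreign RNA and pass on the interferon signal rose as a group. Of 28 tested genes of RNA sensing and interferon signalling, 22 were called higher and 2 lower, with a median log2 fold change of 0.59. The sensors and adaptors led: 9 of 11 rose, with a median of 0.91. Of 9 kinases and transcription factors, 6 rose and none fell, with a median of 0.19, and all 5 negative regulators rose, with a median of 0.68. Of 8 ligand and receptor genes with an interval, only 3, all interferon receptor chains, had enough reads to be tested. Of these 3, 2 rose and 1 fell, with values from -0.14 to 0.29.

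TLR3, the endosomal receptor for double-stranded RNA, was measured at 5.50, 5.85, 5.51 and 5.35 CPM in the scrambled libraries and at 15.2, 17.1, 16.2 and 15.3 CPM with siRNA-1. The groups did not overlap, and the log2 fold change was 1.52 (SE 0.06, adjusted p = 5.98e-16). Its adaptor gene TICAM1 rose by 0.55 (SE 0.06) and STING1, the adaptor of the DNA-sensing route, by 0.60 (SE 0.04). The promoter of TLR3 is shown because it holds an interferon-stimulated response element (ISRE), the site bound by interferon-activated factors. It is given 5′ to 3′ on the plus strand from RefSeq (GRCh38.p14, chr4:186068906-186069205), from 250 bases before to 50 bases after the gene start, with the match in capitals.
TLR3: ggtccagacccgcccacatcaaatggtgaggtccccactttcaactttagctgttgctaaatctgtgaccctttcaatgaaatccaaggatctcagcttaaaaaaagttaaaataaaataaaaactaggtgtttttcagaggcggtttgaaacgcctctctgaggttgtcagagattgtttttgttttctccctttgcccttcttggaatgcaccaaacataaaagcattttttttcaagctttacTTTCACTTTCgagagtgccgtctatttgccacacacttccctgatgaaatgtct
The motif searched was GAAANNGAAA on both strands. It was found in 4 of the 14 promoters at hand of list members called higher (28.6%), in 1 of 6 of the other members, and in 2.95% of all 14858 promoters of tested genes. Over all genes called higher the share was 2.97%, next to 2.56% over all genes called lower. In TLR3 the match reads on the strand opposite to the gene and begins 4 bases before its start.

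Other arms of defence moved unevenly. Of 14 complement genes, 9 rose and 4 fell. C1R, a protease of the first complement component, stood at 38.1, 30.6, 31.3 and 35.9 CPM with scrambled and at 99.4, 99.5, 103.9 and 100.9 CPM with siRNA-1 (log2 fold change 1.57, SE 0.05, adjusted p = 2.13e-16). Its partner protease C1S rose by 1.26 (SE 0.05) and C3, the central component, by 1.85 (SE 0.10). CD46, a membrane inhibitor of complement, fell by 0.33 (SE 0.06), and C7, a part of the membrane attack complex, fell by 1.37 (SE 0.26) at under 2 CPM.

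Of 17 chemokine and cytokine genes tested, 11 rose and 2 fell, several of them at very low counts. The macrophage growth factor CSF1 rose by 0.64 (SE 0.04), IL11 by 1.96 (SE 0.09) and the membrane-bound chemokine CX3CL1 by 2.06 (SE 0.15), the last from 1.18 to 1.29 CPM to 4.75 to 5.48 CPM. IL18 went the other way, from 9.12 to 11.6 CPM down to 4.63 to 5.57 CPM (log2 fold change -1.02, SE 0.09). Antigen presentation was covered only in part, since many of its genes were not analysed here. Of 7 tested class I genes, 3 rose and 2 fell, with a median of -0.06, and of the 6 for peptide supply and loading 2 rose and 2 fell. The transactivator of class I genes, NLRC5, rose by 0.98 (SE 0.06), the immunoproteasome subunit PSMB10 by 0.43 (SE 0.05) and the class II invariant chain CD74 by 1.68 (SE 0.12).

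The NF-kB core, which holds the subunits that drive inflammatory genes and the inhibitors that restrain them, leaned the opposite way. Of 13 members, 9 fell and 2 rose, with a median of -0.27. TNIP1, an inhibitor of the pathway, was at 239, 255, 235 and 233 CPM with scrambled and at 157, 146, 147 and 159 CPM with siRNA-1, a log2 fold change equal to -0.66 (SE 0.04, adjusted p = 1.96e-13) between groups that did not overlap. BIRC3, a ubiquitin ligase of the pathway, fell by 1.08 (SE 0.06) and the inhibitor NFKBIE by 0.37 (SE 0.05). The count called higher is 1 under most alternative settings, among them leaving out any 1 scrambled library.

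**Figure D2:**
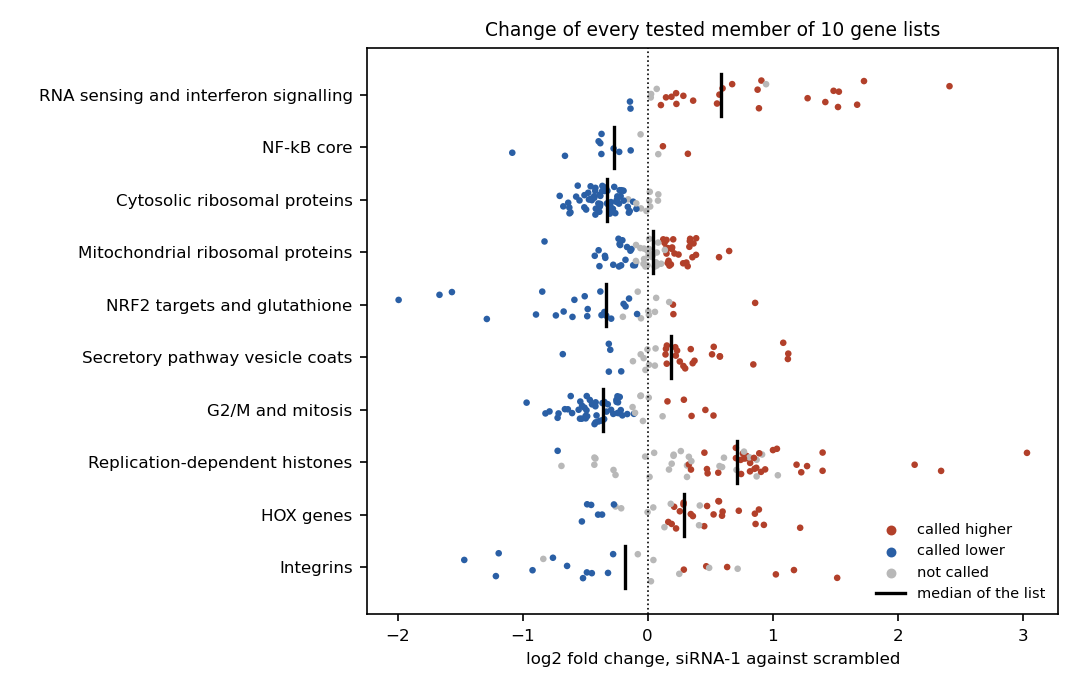
Log2 fold change of siRNA-1 against scrambled (x axis) for every tested member of 10 gene lists (rows), 4 libraries a group. Points are genes, red where called higher, blue where called lower and grey where not called, and black bars are list medians. Cytosolic ribosomal proteins lie in a narrow band with a median of -0.32, and histones spread to the right with a median of 0.71.

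Genes of the cytosolic ribosome fell together by small amounts. Ribosomal proteins build the small and large subunits that translate all messenger RNA, and their own transcripts are known to be regulated together through a pyrimidine tract at their first base. Of 74 cytosolic ribosomal protein genes, 64 were called lower and none higher (1 higher without scrambled replicate 3), and in 55 all 4 siRNA-1 libraries lay below all 4 scrambled libraries. The values were small and close together, from -0.70 to 0.09 with a median of -0.32, and no member reached 2-fold. The large subunit (43 of 46 lower, median -0.32) and the small subunit (21 of 28 lower, median -0.35) had close medians. Many of these genes have processed pseudogenes that can share their reads, so single values are uncertain, and 25 of the 74 intervals overlap another.

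RPS4X, a protein of the small subunit encoded on the X chromosome, was at 378, 414, 414 and 424 CPM with scrambled and at 267, 259, 257 and 275 CPM with siRNA-1. These groups did not overlap, and the log2 fold change was -0.63 (SE 0.05, adjusted p = 1.58e-11). RPS3A fell by 0.70 (SE 0.05) and RPLP0, the base of the ribosomal stalk, by 0.56 (SE 0.04). The promoter of RPS3A is shown for the pyrimidine tract at its annotated start (RefSeq, GRCh38.p14, plus strand, chr4:151099378-151099677), with the tract in capitals.
RPS3A: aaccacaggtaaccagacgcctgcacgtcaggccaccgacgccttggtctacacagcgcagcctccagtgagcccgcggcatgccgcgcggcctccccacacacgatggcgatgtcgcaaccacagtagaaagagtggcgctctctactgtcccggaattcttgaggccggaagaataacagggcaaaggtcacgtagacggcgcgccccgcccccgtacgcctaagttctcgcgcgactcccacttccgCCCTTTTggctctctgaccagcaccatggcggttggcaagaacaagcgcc
A tract was counted where the base at the annotated start is C and at least the next 4 are C or T, on the strand of the gene. It was present in 39 of 59 ribosomal protein promoters at hand (66.1%), and in 4.73% of all promoters of tested genes. Among ribosomal protein genes called lower the share was 67.3%, and 6 of the 10 not called lower held it too. Over all tested genes it was present in 6.02% of those called lower and 4.10% of those called higher.

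Other parts of the translation apparatus moved less evenly. Hosts of small nucleolar RNAs, whose spliced transcripts often begin with the same tract, leaned down, with 16 of 31 lower, 4 higher and a median of -0.27. Of these 31 intervals, 21 overlap another. SNHG5 fell by 0.60 (SE 0.05) and ZFAS1 by 0.24 (SE 0.05), with 30.2% and 31.6% of their reads in the nested SNORD50B and SNORD12B. Of 44 translation factors, 21 fell and 12 rose. EIF5, which triggers GTP hydrolysis at the start codon, fell by 0.68 (SE 0.04), EIF4G2 by 0.48 (SE 0.04) and the poly(A)-binding protein PABPC1 by 0.39 (SE 0.04). The mitochondrial ribosome had no common direction: 29 of 74 members rose and 19 fell, with a median of 0.04. Its gene MRPS9 rose by 0.65 (SE 0.05) and MRPL32 by 0.57 (SE 0.04). Of 18 cytosolic aminoacyl-tRNA synthetases, 8 rose and 6 fell. WARS1, the tryptophan synthetase and a known interferon target, had the highest value, 67.0, 63.7, 62.5 and 64.5 CPM with scrambled against 111, 110, 111 and 121 CPM with siRNA-1 (log2 fold change 0.81, SE 0.04, adjusted p = 2.13e-14), while LARS1, the leucine synthetase, fell by 0.54 (SE 0.04).

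Protein folding and export genes rose more often than they fell. None of 24 cytosolic and mitochondrial chaperones was called lower, and 14 were called higher, with a median of 0.16. HSP90AA1, the inducible form of the HSP90 chaperone, was tightly measured at 727, 725, 719 and 728 CPM with scrambled and 1010, 1020, 1030 and 1039 CPM with siRNA-1. The log2 fold change was 0.50 (SE 0.03, adjusted p = 1.34e-12). The co-chaperone STIP1 rose by 0.51 (SE 0.03) and the chaperonin subunit CCT8 by 0.49 (SE 0.04). Chaperones of the endoplasmic reticulum were split, with 9 of 17 higher and 6 lower, and PDIA4, a disulfide isomerase, fell by 0.41 (SE 0.04).

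Secretory pathway genes also rose more often than they fell. This list holds the COPII coat, which carries proteins out of the endoplasmic reticulum, the COPI coat, the translocon and genes tied to them. Of 34 tested, 21 rose and 5 fell. Of the 15 in the COPII group, which includes the transcription factor CREB3L1, 10 rose and 3 fell, with a median of 0.26. Of the 19 in the COPI and translocon group, 11 rose and 2 fell. SAR1B, the GTPase that starts COPII coats, was at 30.5, 26.8, 27.6 and 30.2 CPM with scrambled and at 60.6, 62.8, 65.0 and 62.5 CPM with siRNA-1 (log2 fold change 1.12, SE 0.05, adjusted p = 3.23e-16). SEC24A, a cargo adaptor of the same coat, rose by 1.08 (SE 0.05). CREB3L1, a transcription factor that raises secretory and collagen genes, rose by 1.12 (SE 0.05). SPCS3, a subunit of the signal peptidase, fell by 0.68 (SE 0.04). In the lysosome, 13 of 20 membrane and proton pump genes rose and 2 fell, while the 28 hydrolases were split, 11 higher and 9 lower. The proteases CTSL and CTSH rose by 0.72 (SE 0.04) and 1.24 (SE 0.07). Of 36 proteasome genes, 16 fell and 7 rose, with a median of -0.06.

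**Figure D3:**
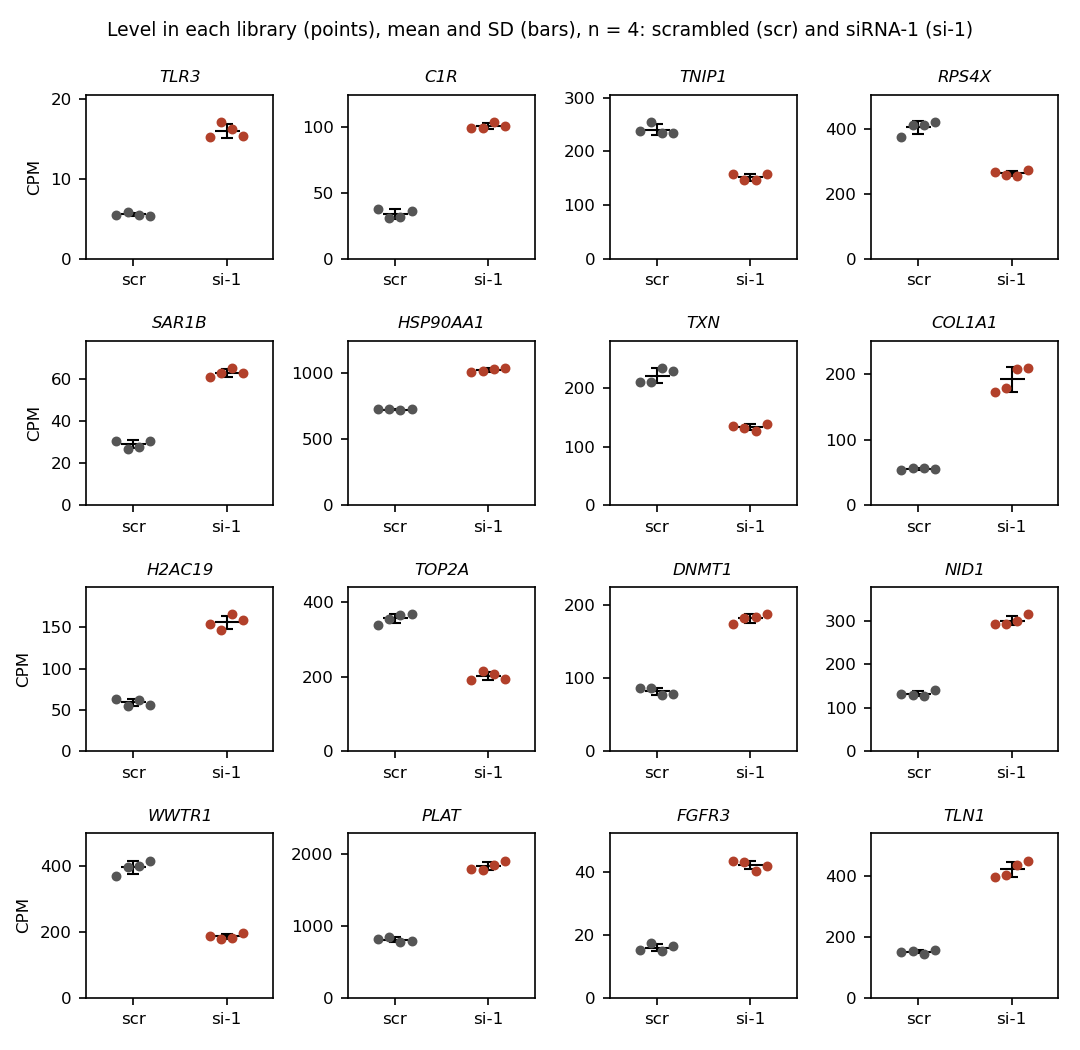
CPM of 16 genes in each scrambled (grey) and siRNA-1 (red) library, with mean and SD of 4 libraries, on linear axes that start at 0. In each of the 16 genes the 4 siRNA-1 libraries lie on 1 side of the 4 scrambled libraries.

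In metabolism, targets of NRF2 fell together. NRF2 is the transcription factor that answers oxidative stress with genes of glutathione and thioredoxin supply. Of 33 members, 22 fell and 3 rose, with a median of -0.33, and 4 fell at least 2-fold. TXN, thioredoxin itself, was at 212, 210, 235 and 230 CPM with scrambled and at 135, 131, 127 and 140 CPM with siRNA-1, a log2 fold change equal to -0.73 (SE 0.04, adjusted p = 6.44e-13). SRXN1, which repairs peroxiredoxins, fell by 0.67 (SE 0.04). AKR1C2, an aldo-keto reductase, fell by 1.57 (SE 0.07), with 56.0% of its reads in the nested LOC101928051, and close copies of this gene may share reads. The 3 that rose were KEAP1, the inhibitor of NRF2, by 0.21 (SE 0.04), HMOX1, heme oxygenase, by 0.86 (SE 0.09), and the glutathione synthetase GSS by 0.20 (SE 0.04), whose interval overlaps ACSS2. The antioxidant response element, searched as TGACNNNGC on both strands, was in 3 of 15 promoters of members called lower, 3 of 8 of the others and 14.5% of all promoters.

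Genes of fuel use changed mostly by small amounts. Of 26 genes of mitochondrial fatty acid oxidation, 13 fell and 3 rose, with a median of -0.18. HADHB, a subunit of the trifunctional enzyme, fell by 0.28 (SE 0.04), ETFDH, which feeds electrons from oxidation to the respiratory chain, by 0.38 (SE 0.05), and the thiolase ACAA2 by 0.30 (SE 0.05). CPT1C, a neuronal relative of the carnitine transferases, rose by 1.27 (SE 0.13), from 1.25 to 1.59 CPM with scrambled to 3.39 to 3.60 CPM with siRNA-1. Of 21 glycolysis genes, 13 rose and 4 fell, with a median of 0.17. The glucose transporter SLC2A3 rose by 0.48 (SE 0.04) and the phosphofructokinase PFKL by 0.45 (SE 0.04), while enolase, ENO1, fell by 0.35 (SE 0.04). ALDOC, the brain aldolase, rose by 2.30 (SE 0.12), from 1.62 to 2.80 CPM to 9.70 to 11.4 CPM. Respiratory chain genes showed no common direction, with 16 of 72 higher, 21 lower and a median of -0.03, and without scrambled replicate 1 only 8 were called higher, and without siRNA-1 replicate 4 only 9.

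Synthesis routes were mixed. Of 20 fatty acid synthesis genes, 12 rose and 4 fell, and of 19 cholesterol enzymes 12 rose and 3 fell, with medians of 0.18 and 0.14. MSMO1, a sterol oxidase, rose by 0.69 (SE 0.04). GPAT3, which starts triglyceride synthesis, fell by 2.21 (SE 0.17), from 5.67 to 7.60 CPM to 0.843 to 1.96 CPM. Serine, one-carbon and nucleotide genes leaned down, with 19 of 38 lower and 6 higher. The methionine synthase MTR fell by 0.64 (SE 0.05) and the ribonucleotide reductase subunit RRM1 by 0.44 (SE 0.04). CBS, which turns homocysteine into cystathionine, rose by 0.91 (SE 0.05). ACO1, the cytosolic aconitase that also senses iron, fell by 0.74 (SE 0.05).

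Histone genes and the rest of the cell cycle program moved apart. Replication-dependent histones package new DNA and are known to be made in S phase, and their messages end in a stem-loop in place of a poly(A) tail. Of 61 tested, 32 were called higher and 1 lower, with a median of 0.71, and 10 rose at least 2-fold. Genes of G2/M and mitosis did the opposite, with 49 of 61 lower and 5 higher (median -0.36), as did genes of G1/S and replication, with 35 of 54 lower and 4 higher (median -0.17). The 35 include the cell cycle inhibitor CDKN2A, whose reads are of untested origin and are described under other observations. Histone genes are near-identical copies, and their reads cannot be assigned with certainty: H2AC18 and H2AC19 had almost the same values, 55.1 to 63.6 and 55.3 to 63.6 CPM with scrambled against 147 to 165 CPM with siRNA-1 for both (log2 fold change 1.40, SE 0.05 for each). H2BC21 was at 40.7, 39.5, 38.7 and 40.1 CPM with scrambled and at 77.1, 83.6, 86.7 and 78.3 CPM with siRNA-1, a log2 fold change equal to 1.03 (SE 0.05, adjusted p = 3.75e-15). The single member called lower was H2BC26, at under 2 CPM (log2 fold change -0.72, SE 0.20).

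TOP2A, the topoisomerase that untangles chromosomes before mitosis, was at 341, 357, 365 and 368 CPM with scrambled and at 193, 215, 209 and 195 CPM with siRNA-1 (log2 fold change -0.82, SE 0.04, adjusted p = 2.13e-14). The condensin subunit SMC2 fell by 0.62 (SE 0.04), and the phosphatase CDC25A, which activates cyclin-dependent kinases, by 0.79 (SE 0.05). In the G1/S group the kinase CDK6 fell by 0.98 (SE 0.05), the pocket protein RBL2 by 0.90 (SE 0.05) and the helicase subunit MCM6 by 0.38 (SE 0.04). The promoter of TOP2A is shown because it carries the cell cycle homology region (CHR), the letters TTTGAA on either strand, known from genes that peak in G2/M. It is given for the minus strand (RefSeq, GRCh38.p14, chr17:40417847-40418146), with both matches in capitals, 194 and 151 bases before the gene start.
TOP2A: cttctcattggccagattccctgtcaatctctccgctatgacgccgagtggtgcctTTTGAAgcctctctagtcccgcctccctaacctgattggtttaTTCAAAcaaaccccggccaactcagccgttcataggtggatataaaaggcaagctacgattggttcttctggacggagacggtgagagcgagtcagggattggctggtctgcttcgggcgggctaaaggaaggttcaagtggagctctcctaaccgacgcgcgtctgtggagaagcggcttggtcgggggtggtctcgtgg
The motif was in 33 of 50 promoters at hand of the G2/M list (66%) and in 11.6% of all promoters of tested genes. It was in 25 of 41 list members called lower and in 8 of 9 that were not. Over all tested genes, 12.6% of those called lower and 9.01% of those called higher held it.

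Chromatin regulators split by kind. Among 25 polycomb and DNA methylation genes, 15 fell and 5 rose, with a median of -0.18, while the 47 remodellers, writers and erasers were near balance, with 18 higher and 14 lower. DNMT1, the methyltransferase that copies methylation after replication, ran against its group: 85.5, 86.5, 76.8 and 77.5 CPM with scrambled became 173, 181, 183 and 187 CPM with siRNA-1 (log2 fold change 1.15, SE 0.04, adjusted p = 2.16e-17). TET1, which oxidizes methylated cytosine, fell from 28.6, 29.4, 31.1 and 30.0 CPM to 14.7, 15.7, 16.4 and 15.7 CPM (log2 fold change -0.93, SE 0.05, adjusted p = 1.26e-13). The histone demethylase KDM1A rose by 0.57 (SE 0.04). The lamins, which line the nucleus, went different ways: LMNB2 rose by 0.65 (SE 0.04), while LMNB1 fell by 0.50 (SE 0.04) and LMNA by 0.34 (SE 0.04).

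Of 36 tested HOX genes, the position-encoding homeobox factors whose expression in gliomas is well known, 22 rose and 6 fell, with a median of 0.29. Clusters are dense, and 26 of the 36 intervals overlap another. Of those that do not, HOXB13 rose by 0.73 (SE 0.09), HOXA13 by 0.59 (SE 0.07) and HOXB7 by 0.35 (SE 0.05), and HOXC9 fell by 0.53 (SE 0.10). Among 458 genes with a ZNF symbol, most of them DNA-binding zinc finger proteins, 143 rose and 57 fell, with a median of 0.09. The share that rose, 31.2%, lay below that of all protein-coding genes and the share that fell, 12.4%, lay further below. ZNF622 rose by 0.83 (SE 0.05), and ZNF395 and ZNF608 fell by 1.13 (SE 0.05) and 1.30 (SE 0.10). Splicing regulators leaned down, with 19 of 49 lower and 9 higher, but the RNA-binding protein QKI, a regulator of glial splicing, rose from 31.1 to 36.1 CPM to 65.6 to 73.6 CPM (log2 fold change 1.06, SE 0.05, adjusted p = 7.61e-16), and HNRNPD rose by 0.70 (SE 0.04).

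In the matrix, collagen genes and their processing enzymes rose more often than they fell. Of 39 collagen genes, 18 rose and 6 fell, and of 24 genes that process collagen 13 rose and 3 fell, with medians of 0.12 and 0.27. COL1A1, a chain of type I collagen, was at 53.3, 56.4, 56.0 and 55.8 CPM with scrambled and at 173, 180, 208 and 210 CPM with siRNA-1 (log2 fold change 1.80, SE 0.05, adjusted p = 2.51e-16). It had 2395 to 2734 reads a library with scrambled and 7777 to 9960 with siRNA-1. The other chain, COL1A2, had far more reads and a smaller rise, from 113183 to 134742 reads a library to 174664 to 221911. COL16A1 rose by 1.02 (SE 0.09), while COL6A3 fell by 1.03 (SE 0.08) and COL7A1, the anchoring fibril chain, by 0.46 (SE 0.06). The hydroxylases P3H3 and PLOD1 rose by 0.79 (SE 0.05) and 0.61 (SE 0.04), and the collagen chaperone SERPINH1 and the cross-linking oxidase LOXL4 fell by 0.33 (SE 0.04) and 0.54 (SE 0.05).

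Of 15 laminin and basement membrane genes, 7 rose and 4 fell. NID1, nidogen, which links laminin to collagen, was at 132, 128, 126 and 140 CPM with scrambled and at 292, 293, 299 and 314 CPM with siRNA-1, a log2 fold change equal to 1.18 (SE 0.04, adjusted p = 1.86e-17). Agrin, AGRN, rose by 0.54 (SE 0.05). The laminin chain LAMB3 fell by 1.12 (SE 0.07), from 35.2 to 40.8 CPM to 15.8 to 19.8 CPM. Of 24 integrin chains, the receptors for these proteins, 11 fell and 6 rose. ITGB8, which activates latent TGF-beta, fell by 1.19 (SE 0.05), and ITGA7, a laminin receptor, rose by 1.17 (SE 0.07). Of 39 matricellular proteins and glycoproteins, 21 rose and 9 fell, while of 26 proteoglycan and hyaluronan genes 6 rose and 12 fell. The adaptor MATN2 rose by 1.65 (SE 0.05) and FBLN5 by 1.33 (SE 0.11), and tenascin C, TNC, fell by 1.92 (SE 0.15), from 6.00 to 7.86 CPM to 1.59 to 2.00 CPM.

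All 5 tested genes of the plasminogen system, which turns plasminogen into the protease plasmin at the cell surface, rose, with values from 0.57 to 1.18. PLAT, the tissue activator, was at 818, 849, 777 and 789 CPM with scrambled and at 1797, 1780, 1844 and 1909 CPM with siRNA-1 (log2 fold change 1.18, SE 0.04, adjusted p = 1.69e-17). SERPINE2, an inhibitor of the activators, rose by 1.11 (SE 0.04). F3, tissue factor, which starts clotting, rose by 2.38 (SE 0.08), from 13.6 to 16.9 CPM to 67.8 to 83.3 CPM. Matrix metalloproteases and their inhibitors showed no common direction, with 5 of 17 higher and 5 lower, and of 17 ADAM and ADAMTS genes 9 fell and 5 rose.

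Guidance and neural adhesion genes moved in both directions. Of 67 axon guidance genes, 33 rose and 17 fell, and semaphorins with their receptors rose in 18 of 30. The semaphorin SEMA4F rose by 1.29 (SE 0.05) and the receptor PLXNB2 by 0.74 (SE 0.04). SEMA5A fell from 82.7 to 95.8 CPM to 29.1 to 34.1 CPM (log2 fold change -1.55, SE 0.07, adjusted p = 9.79e-13). Of the neural adhesion molecules, neurofascin, NFASC, rose by 1.24 (SE 0.04) and ALCAM by 1.20 (SE 0.05), and contactin 1, CNTN1, fell by 2.19 (SE 0.09), from 13.9 to 14.7 CPM to 2.99 to 3.36 CPM.

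Growth factor receptors and ligands differed by family. In the EGFR family, 3 of 12 genes rose and 3 fell, with 1 of 5 receptors higher and 2 lower. Of 24 tested receptors of the PDGF, FGF, MET, AXL and VEGF families, 13 rose, 7 of them at least 2-fold, and 6 fell. FGFR3 was at 15.2, 17.2, 14.6 and 16.3 CPM with scrambled and at 43.5, 42.9, 40.3 and 41.7 CPM with siRNA-1 (log2 fold change 1.41, SE 0.05, adjusted p = 4.44e-17). FGFR4 and the lymphatic VEGF receptor FLT4 rose by 1.21 (SE 0.08) and 1.07 (SE 0.05). AXL, a receptor tied to the mesenchymal state, fell by 0.46 (SE 0.04), and the collagen receptor DDR2 by 0.49 (SE 0.05). In the insulin-like growth factor axis, 11 of 21 rose and 4 fell. IGFBP5, a binding protein, was at 26.9, 27.1, 25.6 and 25.3 CPM with scrambled and 105, 104, 105 and 106 CPM with siRNA-1, with a log2 fold change equal to 2.00 (SE 0.04, adjusted p = 5.26e-21). The ligand IGF2 rose by 1.44 (SE 0.16), and IGF2R, which clears it, fell by 0.47 (SE 0.06).

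Downstream of the receptors, RAS-MAPK components leaned down, with 11 of 23 lower, 7 higher and a median of -0.06. MAPK3, the kinase ERK1, had the highest value of that list and rose by 1.27 (SE 0.04). Of 32 genes known as ERK output, 18 rose and 7 fell, with a median of 0.29. The feedback inhibitors DUSP6 and SPRY4 rose by 1.27 (SE 0.06) and 0.69 (SE 0.05), and MYC fell by 0.52 (SE 0.07). Of 21 ligands and antagonists of TGF-beta and BMP, 13 rose and 1 fell, with a median of 0.47, whereas their receptors, SMADs and targets had 11 of 28 higher, 6 lower and a median of 0.02. TGFB2 rose by 0.96 (SE 0.04), with 16.9% of its reads in the nested TGFB2-OT1, and the activin antagonist FSTL3 rose by 1.00 (SE 0.04). PMEPA1, a feedback inhibitor of this pathway, fell by 0.94 (SE 0.05). In the Notch pathway, 12 of 27 rose and 11 fell: the receptor NOTCH3 and the ligand JAG2 rose by 1.04 (SE 0.04) and 1.01 (SE 0.06), while the ligand JAG1 fell by 1.61 (SE 0.09) and the glycosyltransferase LFNG, which modifies the receptors, by 1.21 (SE 0.05). In the Wnt pathway, 26 of 54 rose and 12 fell. Of its 13 receptors, 6 rose and 3 fell, 2 of them at least 2-fold, and FZD2 rose by 0.98 (SE 0.04). YAP and TAZ genes were balanced at 11 of 29 in each direction, and TAZ itself, WWTR1, fell from 371, 400, 400 and 417 CPM to 188, 179, 183 and 197 CPM (log2 fold change -1.09, SE 0.04, adjusted p = 1.40e-16).

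Cytoskeletal lists differed in direction. Tubulins were balanced, with 10 of 23 higher and 9 lower. Of 64 actin genes, 29 fell and 15 rose. Moesin, MSN, which ties actin to the membrane, fell by 0.82 (SE 0.04), and the actin bundler PLS3 by 0.89 (SE 0.05). TLN1, talin, which links integrins to actin, moved against this: 150, 153, 143 and 156 CPM with scrambled became 397, 401, 434 and 449 CPM (log2 fold change 1.48, SE 0.05, adjusted p = 4.32e-18). Intermediate filament genes rose more often than they fell, with 13 of 20 higher, 3 lower and a median of 0.78. Vimentin, VIM, the mesenchymal filament, was among those that fell, from 2466 to 2732 CPM to 1610 to 1810 CPM (log2 fold change -0.65, SE 0.04), and 65.2% of its interval overlaps VIM-AS1. KRT8, a keratin of simple epithelia, was at 582, 606, 658 and 571 CPM with scrambled and at 1229, 1248, 1310 and 1292 CPM with siRNA-1 (log2 fold change 1.07, SE 0.04, adjusted p = 1.12e-16), and NEFL, the light neurofilament, fell by 0.59 (SE 0.04).

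Other lists showed smaller or mixed changes. Of 25 genes of the RNA interference machinery, which siRNAs use, 15 fell and 6 rose, with a median of -0.17. DNA repair genes fell in 29 of 71 and rose in 14. Targets of p53 were split, with 8 of 26 higher and 9 lower, and so were clock genes, with 8 of 22 in each direction. Apoptosis genes (14 of 42 higher, 10 lower) and autophagy genes (14 of 33 higher, 8 lower) had medians of 0.03 and 0.05. Ion channel genes rose in 27 of 64 and fell in 17, and neurotransmitter receptors rose in 11 of 25 and fell in 6. Of 28 amino acid transporters and targets of ATF4, the factor of the integrated stress response, 14 rose and 6 fell. Of 21 genes of metal handling, metallothioneins included, 10 rose and 6 fell, but only 5 rose without scrambled replicate 1 and 6 without scrambled replicate 2, scrambled replicate 4 or siRNA-1 replicate 4. Core spliceosome genes rose in 14 of 35 and fell in 5, which became 10 without scrambled replicate 1. Of 22 genes of glioma stem cell and glial identity, 9 rose and 6 fell.

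Across the genome the direction of change followed interval length. Protein-coding genes were split into 5 equal groups by the length of their interval, from 150 to 11997 bases in the shortest group to 105683 to 2478184 in the longest. In the shortest group 44.1% were called higher and 18.6% lower, and in the longest 24.5% and 37.2%. The shares changed step by step: the medians of the log2 fold change were 0.14, 0.09, 0.04, -0.03 and -0.09 from short to long. Over the alternative settings the shortest group had a median between 0.11 and 0.15 and the longest between -0.16 and -0.08, while the middle group ranged from -0.01 to 0.04.

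Of the chromosomes, chromosome 19 had the highest share of genes called higher. Of its 1048 tested protein-coding genes, 50.9% were called higher and 11.9% lower, with a median of 0.20, against 34.2% and 29.7% and a median of 0.01 for all other chromosomes together. Its genes are short, with a median interval of 19300 bases against 38170 elsewhere. Within length groups the shares differed too: in the shortest group 52.8% of its genes rose against 43.0% elsewhere, and in the middle group 50% against 35.6%. Chromosome 18 was at the other end, with 25.6% higher, 37.9% lower and a median of -0.10. The part of interval length and of overlap between intervals in these shares was not tested. By gene type, 18.9% of 4497 long noncoding RNAs rose and 20.9% fell, 14.3% of 617 pseudogenes rose and 24.3% fell, and 15.5% of 328 small nucleolar RNAs rose and 31.7% fell.

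**Figure D4:**
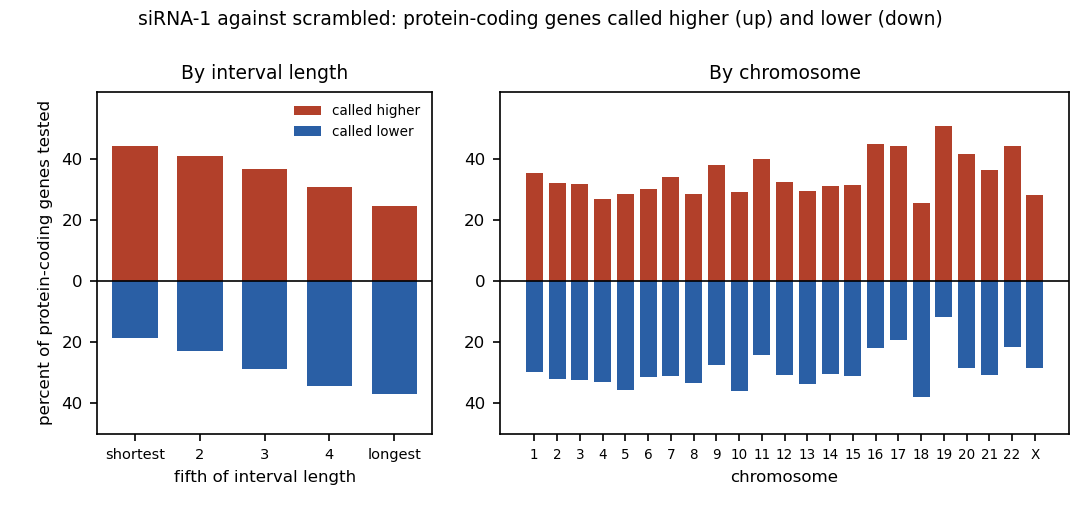
Protein-coding genes called higher (red, up) or lower (blue, down) with siRNA-1 against scrambled, in percent of genes tested, by 5 groups of interval length (left) and by chromosome (right), 4 libraries a group. The share called higher falls from 44.1% in the shortest to 24.5% in the longest group, and chromosome 19 has the highest share, 50.9%.

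Where siRNA-1 differed from siRNA-2 was tested directly, without a control, in the same fit. Of 24941 genes, 8130 differed (32.6%), 3932 of them higher in siRNA-2 (15.8%) and 4198 lower (16.8%). Of the 14553 protein-coding genes, 2715 were higher and 3372 lower. Respiratory chain, glycolysis and cholesterol synthesis genes lay mostly on 1 side. With siRNA-2, 45 of 72 respiratory chain genes were lower than with siRNA-1 and none higher. So were 15 of 21 glycolysis genes and 16 of 19 cholesterol enzymes, with 2 and 1 higher. Other fuel lists were less uniform: mitochondrial fatty acid oxidation had 10 of 26 lower and 4 higher, and the TCA cycle with pyruvate entry 15 of 28 lower and 6 higher. Secretory pathway genes (23 of 34 lower, 2 higher) and core spliceosome genes (23 of 35 lower, 2 higher) were also lower more often than higher with siRNA-2. Of the cytosolic ribosomal proteins, 25 of 74 were lower still with siRNA-2 and none higher. On the opposite side, 29 of 61 G2/M genes were higher with siRNA-2 than with siRNA-1 and 2 lower, as were 14 of 26 p53 targets and 21 of 61 histones.

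Single genes separated the siRNAs clearly. ALDOC was at 9.70 to 11.4 CPM with siRNA-1 and at 3.06 to 3.56 CPM with siRNA-2, a difference of -1.69 (SE 0.12, adjusted p = 2.63e-11), and C3 differed by -1.02 (SE 0.10). RPS6KA2, a kinase downstream of ERK, was at 145 to 153 CPM with siRNA-1 and 60.8 to 63.9 CPM with siRNA-2 (difference -1.26, SE 0.04, adjusted p = 6.87e-18), where scrambled libraries held 116 to 126 CPM. The kinase MAP3K8 differed by -1.15 (SE 0.07). WEE1, the kinase that delays mitosis, was at 62.7 to 70.8 CPM with siRNA-1 and 30.8 to 33.9 CPM with siRNA-2 (difference -1.06, SE 0.05, adjusted p = 1.88e-14).

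Other genes were higher with siRNA-2. The collagen chaperone SERPINH1 was at 275 to 312 CPM with siRNA-1 and at 556 to 587 CPM with siRNA-2, with scrambled libraries between, at 348 to 385 CPM (difference 1.00, SE 0.04, adjusted p = 6.37e-15). PDIA4 and LMNA followed the same order, with differences of 0.72 (SE 0.04) and 0.55 (SE 0.04). The guidance cue SEMA3A was at 23.7 to 27.5 CPM with siRNA-1, 30.6 to 32.9 CPM with scrambled and 57.7 to 60.1 CPM with siRNA-2 (difference 1.22, SE 0.05, adjusted p = 1.04e-15). JAG1 and TNC, which fell with siRNA-1, were higher with siRNA-2 by 1.01 (SE 0.10) and 1.34 (SE 0.16). TMEM158, CD68 and GDF15 were above scrambled with siRNA-1 and higher again with siRNA-2, by 1.13 (SE 0.11), 1.11 (SE 0.09) and 1.07 (SE 0.20). In GDF15, 17.2% of the reads lay in the nested MIR3189.

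**Figure D5:**
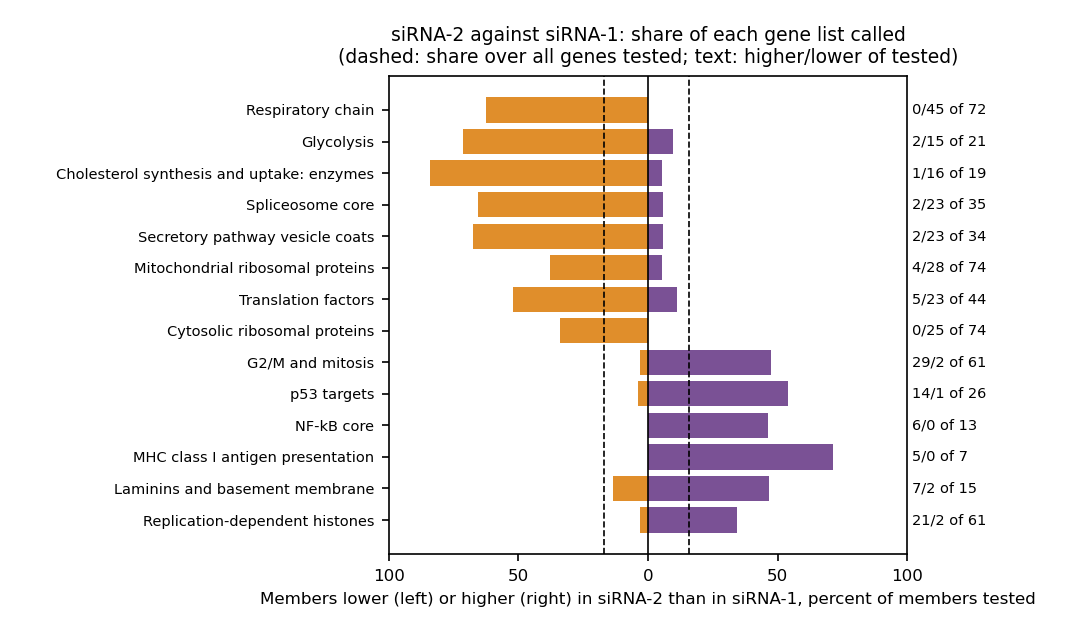
Share of the tested members of 14 gene lists that were lower (orange, left) or higher (purple, right) with siRNA-2 than with siRNA-1, in percent, 4 libraries a group. Dashed lines mark 16.8% and 15.8%, the shares over all genes tested; no respiratory chain gene and no cytosolic ribosomal protein gene was higher with siRNA-2.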

How the data were processed

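RNA of A172 cells was sequenced in 12 libraries, 4 per group. Salmon and the build hg38 are named, without their role, per the submitters' processing notes. The table the authors deposited gives whole-number counts per interval. The sources used here do not give how reads were assigned to intervals, or whether by strand. Overlapping intervals can therefore count the same reads. Of the 24941 intervals tested, 12098 share at least 10% of their length with another, so the genes called are not all separate.

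Of 48769 gene intervals, 44875 were used. The others reached over 100 kb beyond the annotated gene (1927), carried an older name of a gene with its own interval (1065), repeated the counts of another interval (722), or were unmatched and over 1 Mb long, ribosomal RNA, copies on chromosome Y or names turned into numbers. Counts were fitted with edgeR 4.0.16 in R 4.3.3: filterByExpr (minimum count 10, minimum total 15), TMM scaling and the robust quasi-likelihood test over all 12 libraries, with Benjamini-Hochberg adjustment over all 24941 genes tested. Log2 fold changes are siRNA-1 minus scrambled unless stated, and SE is the standard error of the log2 fold change. CPM is scaled by the TMM library size and is not corrected for length. Levels of different genes are therefore compared only among the cell type markers, and only roughly. The scripts were tested on simulated counts.

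Genes of 70 lists were described by counts and medians, with no test of a list. The lists, the comparison and the genes named were chosen with earlier results of these data known. Named genes are taken, per list and direction, from the 3 members with the smallest p whose groups do not overlap and whose interval shares under 10% of its length with another, and outside the lists from the 8 with the largest fold change or difference between siRNAs per direction at an average log2 CPM of at least 4. Many human leukocyte antigen region genes were not analysed here. DESeq2 1.42.0, its size factors, other filters, subsets of genes and samples, and leaving out libraries were the alternatives. limma 3.58.1 was loaded with edgeR. Replicate numbers were not used to pair the libraries in the main fit.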

Additional observations from a re-analysis of the deposited data

Results flagged for a closer look

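In groups of 4 values the gap between an extreme library and its nearest neighbour was set against the whole range of the group. Of 296 groups looked at, 14 had a ratio above Dixon's critical value, and chance gives about 1 in 20. In the scrambled group the ratio was 0.943 for AKR1C2 (replicate 2 low at 28.04 CPM), 0.874 for KEAP1 (replicate 4 low at 162.5 CPM), 0.947 for FBLN5 and 0.883 for DUSP6 (replicate 1 high at 4.07 and 13.5 CPM). It was 0.984 for intervals with reads in a single library, with 1681 in replicate 1. In the siRNA-1 group it was 0.842 for the share of 45S ribosomal RNA (replicate 3 high at 16.2%). Among genes of that group, replicate 4 was high for WARS1 (0.884), P3H3 (0.933) and SERPINH1 (0.874) and low for CPT1C (0.928). Replicate 2 was high for CTSL (0.853), CTSH (0.843) and PLS3 (0.9), and replicate 1 for MTR (0.91). For each of these genes the scrambled and siRNA-1 groups do not overlap.

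The siRNAs differed at least 2-fold, by the test of the difference itself, for 11 of the genes named. Log2 differences of siRNA-2 minus siRNA-1 were -1.02 for C3, -1.69 for ALDOC, -1.26 for RPS6KA2, -1.06 for WEE1 and -1.15 for MAP3K8. They were 1.34 for TNC, 1.01 for JAG1, 1.22 for SEMA3A, 1.13 for TMEM158, 1.11 for CD68 and 1.07 for GDF15.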

How the results depend on the processing

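The alternatives were DESeq2, its size factors, other filters, only the groups compared, subsets of intervals, a replicate block, leaving out each library, and leaving out both libraries that stand apart. Genes changed at least 2-fold depended on the filter: with 1 CPM required in at least 4 libraries, 774 were higher and 351 lower with siRNA-1, and between the siRNAs 161 were higher and 75 lower in siRNA-2 (365 and 171 as fitted here). Fewer genes are tested under that filter. The other 132 counts over all genes stayed within 1.5 times, but the balance between higher and lower did not always hold. With siRNA-1, 6132 genes were higher and 6244 lower under the 1 CPM filter. Genes that overlap no other, fitted alone, had 2058 higher and 2126 lower (2407 and 1900 in the main fit). Leaving out single libraries gave 6348 to 6905 genes higher and 5782 to 6383 lower with siRNA-1, and 1218 to 1353 and 600 to 712 at 2-fold. Between the siRNAs it gave 3412 to 3700 and 3503 to 3985, and 315 to 395 and 167 to 198 at 2-fold. The replicate block gave 7074 higher and 6144 lower with siRNA-1, and 3877 and 4164 between the siRNAs. Same-numbered scrambled and siRNA-1 libraries did not deviate together, with correlations of -0.10 to -0.004, and pairs of unlike number ranged from -0.09 to 0.14. So few pairs cannot exclude shared days or batches, the labels do not settle it, and siRNA-2 libraries were not checked. Of list counts, 45 moved by over 1.5 times and 2335 did not. Of the named genes, none had a log2 fold change that changed sign. Only LOC105373944, which holds uc.110, changed its call (adjusted p in edgeR 0.0315 without scrambled replicate 3, 0.079 with it). The median log2 fold change over all genes tested did change sign, with values from -0.053 to 0.008 over the settings. Depth limits uc.110 itself.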

Other observations

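Of 24941 genes tested, 1 had reads in all 4 scrambled libraries and none in any siRNA-1 library. It was CDKN2A (hg38, chromosome 9, 21967139 to 21995324, minus strand), which encodes the cell cycle inhibitor p16 and which A172 cells are known to have lost. It had 31, 23, 18 and 26 reads in the scrambled libraries, 0 in each siRNA-1 library, and 23, 14, 41 and 45 in the siRNA-2 libraries. No fold is given, and where the reads in the other 8 libraries came from was not tested. The reads of its neighbour MTAP numbered 57, 41, 35 and 26 in the scrambled group, 1, 30, 33 and 44 in the siRNA-1 group, and 6, 5, 34 and 47 in the siRNA-2 group. In the opposite direction, 1 gene had reads in all 4 siRNA-1 libraries and in no scrambled library: LOC107986492, at 0.0889 to 0.253 CPM with siRNA-1 and 0.312 to 1.12 CPM with siRNA-2, whose interval overlaps FAM153CP. These genes were chosen after their values were seen.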
